A study of Mus musculus with 6 samples.

Results

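The interferon regulatory factor (Irf) family is described here in CD11b+ Gr-1+ myeloid cells sorted from mouse gliomas, in 3 libraries from tumours carrying mutant IDH1 (mIDH1) and 3 from tumours carrying wild-type IDH1 (wtIDH1). The 8 genes were taken by name (Irf1, Irf2, Irf3, Irf4, Irf5, Irf7, Irf8 and Irf9) from the 23107 genes of the deposited table. Both groups were of C57BL/6 background, and leukocytes were enriched on Percoll before the sort. IDH1 encodes a cytosolic isocitrate dehydrogenase whose glioma mutant makes 2-hydroxyglutarate. The series title names G-CSF secreted by mutant IDH1 glioma stem cells, and the comparison asks how the myeloid cells differ with tumour genotype. The labels give neither the number of mice behind a library nor whether replicates came from separate mice, so p-values reflect only how far these libraries scatter, which may be technical.

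IRF proteins are transcription factors that share an amino-terminal DNA-binding domain, which contacts repeats of the letters GAAA. Irf3, Irf5 and Irf7 are activated by phosphorylation downstream of nucleic acid sensors and Toll-like receptors, and Irf3 and Irf7 then switch on interferon genes. Irf9 acts with Stat2 in the complex ISGF3, which carries the response to type I interferon to genes such as Mx1 and Oas2. Irf1 acts in the response to interferon gamma, Irf2 competes with it for the same sites, and Irf4 and Irf8 bind DNA together with partners such as PU.1 in myeloid and lymphoid cells. In myeloid cells Irf8 is known for its part in making monocytes and type 1 dendritic cells.

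The DNA letters that the family and its partners read are shown first, as a description, and their part in the results was not tested. Each is RefSeq sequence of GRCm38.p6, 5′ to 3′ on the gene's strand, from the 250 bases before the annotated start, with positions counted back from the start to the first base of a match. For Irf8, the capitals mark 2 copies of the STAT-binding motif GAS (TTCNNNGAA) at -171 and -153 and a TATA box (TATAAA) at -31. For Irf7 the stretch outside annotated exons is printed, and it held no match to the motifs searched, while a TATA box lay at -29 within an annotated exon.
Irf8, chr8:120736108-120736357, + strand: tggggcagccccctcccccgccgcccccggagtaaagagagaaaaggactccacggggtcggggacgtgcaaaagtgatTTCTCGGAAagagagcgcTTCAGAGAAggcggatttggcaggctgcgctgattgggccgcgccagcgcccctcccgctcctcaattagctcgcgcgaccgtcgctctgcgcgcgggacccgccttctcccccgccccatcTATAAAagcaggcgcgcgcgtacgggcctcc
Irf7, chr7:141266482-141266674, - strand: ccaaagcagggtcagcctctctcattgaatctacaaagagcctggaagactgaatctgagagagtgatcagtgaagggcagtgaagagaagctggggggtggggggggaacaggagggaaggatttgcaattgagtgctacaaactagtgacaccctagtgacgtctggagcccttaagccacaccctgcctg

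Shorter windows show a GAS match before Irf1 and the interferon-stimulated response element (ISRE, GAAANNGAAA on either strand), which ISGF3 and IRF proteins bind, before Irf2 and before 4 interferon-induced genes. Those 4 were taken as the ISGF3 target genes with the smallest p among those holding an ISRE match, and capitals mark the match.
Irf1, GAS at -90, chr11:53769913-53769942, + strand: aacagcctgatTTCCCCGAAatgatgaggc
Irf2, ISRE at -241, chr8:46739495-46739524, + strand: tggggaagtGAAAATGAAAttgacttttcc
Stat2, ISRE at -222, chr10:128270266-128270295, + strand: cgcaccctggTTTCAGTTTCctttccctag
Ddx60, ISRE at -53, chr8:61928024-61928053, + strand: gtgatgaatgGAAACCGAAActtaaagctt
Ifit3, ISRE at -156, chr19:34583363-34583392, + strand: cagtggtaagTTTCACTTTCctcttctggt
Rsad2, ISRE at -120, chr12:26456553-26456582, - strand: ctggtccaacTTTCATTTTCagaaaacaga

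All 8 Irf genes had a window in the table. An ISRE was found for 1 of the 8 (Irf2, overlapping a match to the composite motif GGAANNGAAA at -247), a GAS for 3 (Irf1, Irf2 and Irf8) and a TATA box for 3 (Irf4, Irf7 and Irf8). Of all 32851 windows in the table, 2.98% held an ISRE, 2.30% the composite motif, 7.02% a GAS and 12.4% a TATA box. The family counts are per gene over any of its windows. By that measure the shares of all tested genes with a window were 3.35% for an ISRE, 2.51% for the composite motif, 7.38% for a GAS and 8.06% for a TATA box. A match is a run of letters and not a measured binding site.

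Library totals ranged from 19728204 to 35093267 counts, and the 8 Irf genes had between 364 (Irf3, mIDH1 replicate 3) and 33366 counts in a library, so counting error was small beside the spread between replicates. All 8 passed the filter on low counts. Levels are given as counts-per-million (CPM) scaled by TMM (edgeR's factor for library composition), and differences as log2 fold changes, mIDH1 minus wtIDH1, each with its standard error (SE) and the p adjusted over all 12950 genes tested by edgeR's quasi-likelihood test.

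In cells from mIDH1 tumours every Irf gene averaged less RNA than in cells from wtIDH1 tumours, and the decrease passed the threshold of 0.05 for Irf7, Irf8 and Irf5. All 8 log2 fold changes were negative, against 46.6% of all genes tested. The 3 calls of 8 stand beside 5.39% of all genes called lower and 8.17% called in either direction, and 6 of the 8 had groups that did not overlap with mIDH1 lower, against 14.9% of all genes. The 8 genes had a median log2 fold change of -0.59, and all genes tested had one of 0.06. In edgeR 0 of the 8 were called higher, as also in DESeq2 and limma voom (2.78% of all genes were called higher in edgeR). In sorted bulk cells, fewer cells of a type that expresses a gene and less of its RNA per cell cannot be told apart. Without mIDH1 replicate 1 the call count was 5, and it was 1 without mIDH1 replicate 2, without wtIDH1 replicate 1 or without wtIDH1 replicate 2; without mIDH1 replicate 3 or wtIDH1 replicate 3 it was 2.

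**Figure D1:**
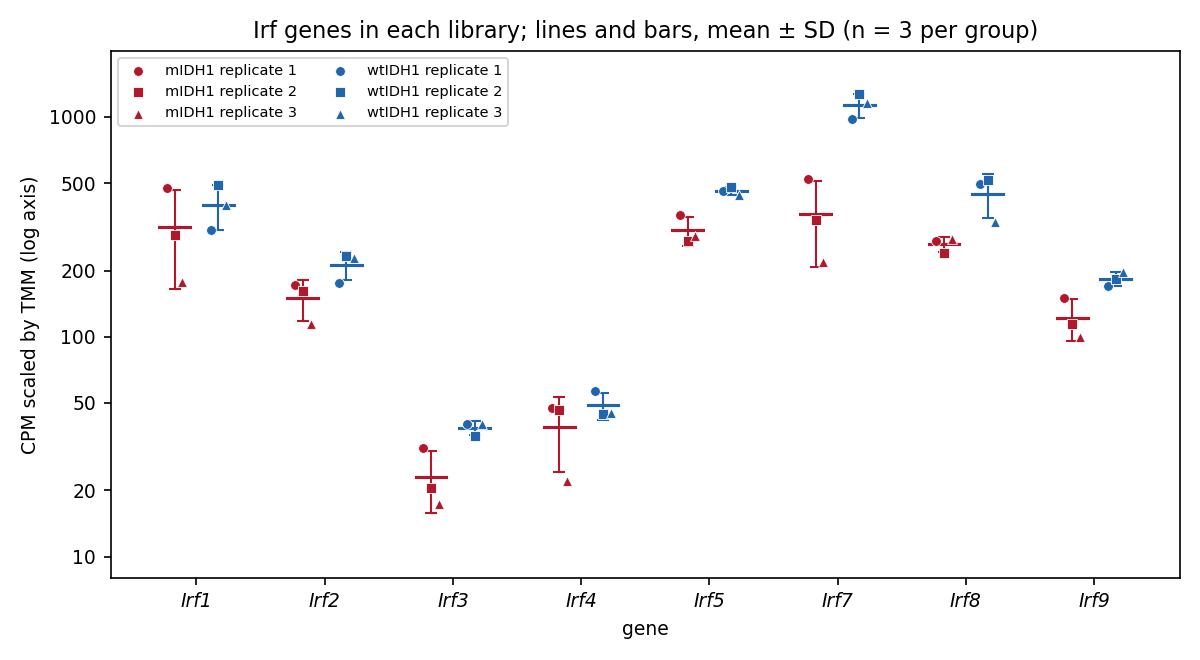
CPM scaled by TMM, on a log axis, of each Irf gene in each library, with mIDH1 (red) left of wtIDH1 (blue), the mean as a horizontal line and the SD as a bar (n = 3 each). Irf7 has the widest gap, from 217.8 to 521.0 CPM in mIDH1 and from 979.3 to 1266 CPM in wtIDH1, and the groups of Irf1 and of Irf4 overlap.

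Irf7, the factor that amplifies type I interferon production and is itself induced by interferon, lies on chromosome 7 from 141262706 to 141266481, minus strand (mm10). It had 521.0, 341.1 and 217.8 CPM in mIDH1 replicates 1 to 3, against 979.3, 1266 and 1153 CPM in wtIDH1 replicates 1 to 3. The highest mIDH1 library lay well below the lowest wtIDH1 library, and the mIDH1 libraries were more spread than the wtIDH1 ones in proportion to their level. Irf7 averaged 360.0 ± 152 CPM in mIDH1 and 1133 ± 144 CPM in wtIDH1 (SD, n = 3 each). It was 3.15-fold lower in mIDH1, a log2 fold change of -1.65 ± 0.26 (SE; 95% interval -2.23 to -1.08, adjusted p = 0.00297). It passed in all 15 other settings tried, with log2 fold changes from -2.02 to -1.39 and adjusted p of at most 0.0248. Of its exon bases, 45 also belong to Phrf1 on the opposite strand, a gene that fell as well (log2 fold change -0.79, adjusted p = 0.0192); the library kit did not mark strand.

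Irf8, which binds with PU.1 and is required in mice for normal monocyte and type 1 dendritic cell numbers, lies on chromosome 8 from 120736358 to 120756694, plus strand, and shares no exon base with another gene. It had 273.6, 240.1 and 278.5 CPM in mIDH1, against 494.4, 516.9 and 330.9 CPM in wtIDH1. The mIDH1 libraries lay close together, and wtIDH1 replicate 3 stood between them and the other wtIDH1 libraries. The means were 264 ± 20.9 CPM in mIDH1 and 447 ± 102 CPM in wtIDH1 (SD, n = 3 each), a log2 fold change of -0.76 ± 0.19 (SE; 95% interval -1.17 to -0.35, adjusted p = 0.0294). Of the 6 fits that left out 1 library, 3 lost the call: without mIDH1 replicate 2 (adjusted p = 0.112), wtIDH1 replicate 1 (0.100) or wtIDH1 replicate 2 (0.155), with log2 fold changes between -0.94 and -0.65 over all 15 settings.

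Irf5, which acts downstream of Toll-like receptors on inflammatory cytokine genes, lies on chromosome 6 from 29526625 to 29541871, plus strand. It had 357.6, 271.2 and 286.7 CPM in mIDH1, against 458.2, 479.1 and 441.1 CPM in wtIDH1. Both groups were narrow, and they did not overlap. The means were 305 ± 46.0 CPM in mIDH1 and 459 ± 19.0 CPM in wtIDH1 (SD, n = 3 each), a log2 fold change of -0.59 ± 0.17 (SE; 95% interval -0.95 to -0.23, adjusted p = 0.0466). This call lay just inside the threshold and passed in 7 of 15 other settings. Among scalings and left-out libraries it was lost with upper-quartile scaling (adjusted p = 0.0593), with library totals alone (0.0626) and without mIDH1 replicate 2 (0.163), mIDH1 replicate 3 (0.0747), wtIDH1 replicate 1 (0.111), wtIDH1 replicate 2 (0.171) or wtIDH1 replicate 3 (0.126). Tnpo3 on the opposite strand shares 411 exon bases with Irf5, 14.1% of them, and had 61.1 ± 4.17 CPM in mIDH1 and 78.5 ± 10.1 CPM in wtIDH1 (SD, n = 3 each; adjusted p = 0.279 in edgeR).

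Irf9, Irf3 and Irf2 did not pass, although in each of them all mIDH1 libraries lay below all wtIDH1 libraries. Irf9, the DNA-binding part of ISGF3 (chromosome 14 from 55603571 to 55610030, plus strand), had 150.6, 114.7 and 99.4 CPM in mIDH1, against 169.8, 184.0 and 197.4 CPM in wtIDH1. Its log2 fold change was -0.60 ± 0.19 (SE, adjusted p = 0.0697), and it passed with DESeq2 (adjusted p = 0.0391) and without mIDH1 replicate 1 (0.0224). Rnf31, which shares 123 exon bases with Irf9 on the same strand, had 50.3 ± 8.52 CPM in mIDH1 and 100.6 ± 15.3 CPM in wtIDH1 (SD, n = 3 each; edgeR's adjusted p = 0.0109).

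Irf3, the constitutively made factor that first switches on interferon beta (chromosome 7 from 44997648 to 45002848, plus strand), was among the least abundant members. It had 31.3, 20.5 and 17.3 CPM in mIDH1, against 40.1, 35.3 and 40.2 CPM in wtIDH1. Replicates 2 and 3 of mIDH1 lay well below wtIDH1, and replicate 1 lay near it. The log2 fold change was -0.74 ± 0.28 (SE, adjusted p = 0.126), close to that of Irf8 but less precise, and it passed without mIDH1 replicate 1 (adjusted p = 0.0437). Irf2 (chromosome 8 from 46739732 to 46847458, plus strand) had 172.7, 162.3 and 113.8 CPM in mIDH1, against 176.0, 233.1 and 228.3 CPM in wtIDH1. The gap between mIDH1 replicate 1 and wtIDH1 replicate 1 was small, and the log2 fold change was -0.51 ± 0.20 (SE, adjusted p = 0.145).

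Irf1 and Irf4 had groups that overlapped. Irf1 (chromosome 11 from 53770014 to 53778374, plus strand) had 475.0, 288.9 and 178.2 CPM in mIDH1, against 304.7, 488.3 and 396.1 CPM in wtIDH1, so that the highest mIDH1 library nearly reached the highest wtIDH1 library. Its log2 fold change was -0.34 ± 0.29 (SE; 95% interval -0.97 to 0.30, adjusted p = 0.564). Irf4 (chromosome 13 from 30749226 to 30766976, plus strand) had 47.4, 46.6 and 22.02 CPM in mIDH1, against 56.7, 44.5 and 45.0 CPM in wtIDH1. Here mIDH1 replicate 3 alone stood apart, and the log2 fold change was -0.33 ± 0.29 (SE; 95% interval -0.95 to 0.29, adjusted p = 0.562). These intervals leave room for decreases as large as those of Irf8 and Irf5.

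The members had a similar order of libraries within the mIDH1 group. Replicate 3 of mIDH1 was the lowest of all 6 libraries for 6 of the 8 genes, and replicate 1 was the highest mIDH1 library for 7 of the 8. The share of all genes with this order was not counted, so it cannot be called a trait of the family. The summed level of the 8 genes was 2029, 1485 and 1214 CPM in mIDH1, against 2679, 3247 and 2833 CPM in wtIDH1.

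**Figure D2:**
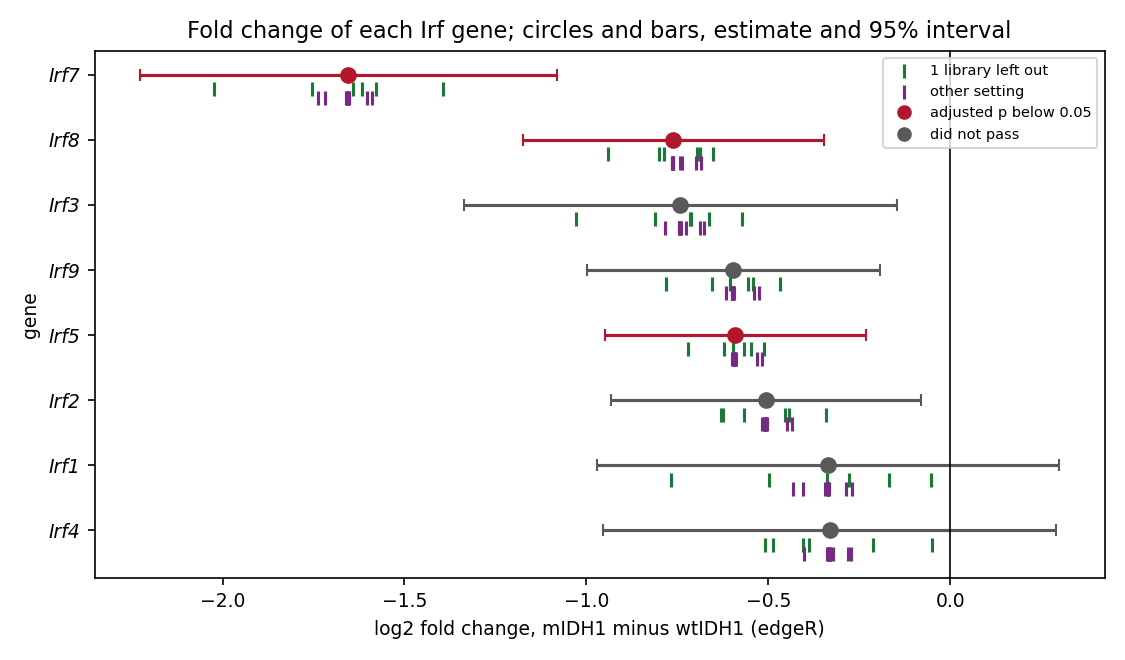
Log2 fold change (mIDH1 minus wtIDH1) of each Irf gene with its 95% interval, red where the adjusted p was below 0.05, with ticks for the estimates when 1 library was left out (green) and under other settings (purple). Irf7 lies at -1.65, apart from the rest, which lie between -0.76 and -0.33, and no tick lies above 0.

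The ratio of 2 genes in the same library does not depend on the scaling between libraries, so it sets the members against each other. Of the 28 pairs of Irf genes 7 had groups that did not overlap, close to the 25.3% among all pairs of tested genes. For all 7 pairs that hold Irf7, the ratio of Irf7 to the partner was lower in every mIDH1 library than in any wtIDH1 library, by 0.95 (against Irf3) to 1.33 (against Irf4) on the log2 scale. Of the 21 pairs without Irf7, 0 had groups that did not overlap; this split by Irf7 was made after the values were seen. With 3 libraries a group the exact two-sided permutation test cannot go below 0.1, and adjusted over the 28 pairs the smallest p was 0.4, so no ratio passed; the 7 pairs also share the values of Irf7.

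**Figure D3:**
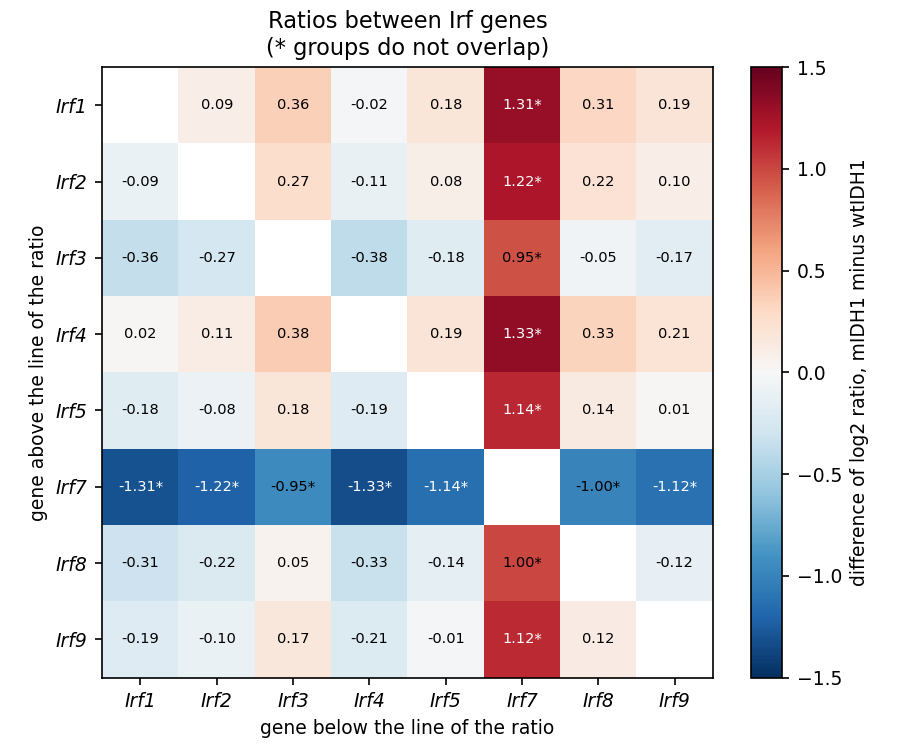
Difference, mIDH1 minus wtIDH1, in the mean log2 ratio of each pair of Irf genes (row over column), red where the ratio was higher in mIDH1 and blue where it was lower; an asterisk marks pairs whose groups do not overlap. The row of Irf7 runs from -1.33 to -0.95, and pairs without Irf7 carry no asterisk.

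Levels of different genes were compared per kilobase of annotated exon. In mIDH1 libraries the order was Irf5 (105 ± 15.8 CPM per kilobase), Irf7 (95.3 ± 40.4), Irf1 (79.0 ± 37.7), Irf8 (37.4 ± 2.97), Irf9 (22.6 ± 4.89), Irf2 (20.2 ± 4.25), Irf4 (7.89 ± 2.94) and Irf3 (6.69 ± 2.13; SD, n = 3 each). Neighbours in this order overlapped for Irf5 and Irf7, Irf7 and Irf1, Irf9 and Irf2, and Irf4 and Irf3. In wtIDH1 libraries it was Irf7 (300.0 ± 38.2), Irf5 (158 ± 6.55), Irf1 (99.7 ± 23.1), Irf8 (63.4 ± 14.4), Irf9 (34.1 ± 2.57), Irf2 (28.7 ± 4.28), Irf3 (11.2 ± 0.811) and Irf4 (9.94 ± 1.40), and Irf3 and Irf4 were the only neighbours that overlapped. Irf7 was thus the highest member in every wtIDH1 library. In wtIDH1 the lowest Irf9 library (31.53 CPM per kilobase) lay barely above the highest Irf2 library (31.51). Per length of the longest transcript Irf7 came after Irf1 and Irf5 in mIDH1 and again ahead of all others in wtIDH1. By that length Irf2 came ahead of Irf9 in both groups, and Irf3 ahead of Irf4 in mIDH1.

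As a share of the family's summed CPM per kilobase, Irf7 made up 28.2, 25.9 and 20.3% in mIDH1, against 40.4, 42.9 and 44.1% in wtIDH1. The shares of Irf1, Irf2, Irf5 and Irf9 were higher in every mIDH1 library than in any wtIDH1 library. Since shares sum to 100%, a lower share of Irf7 raises those of the others. The share of Irf5 averaged 28.9 ± 5.15% in mIDH1 and 22.5 ± 1.80% in wtIDH1 (SD, n = 3 each).

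**Figure D4:**
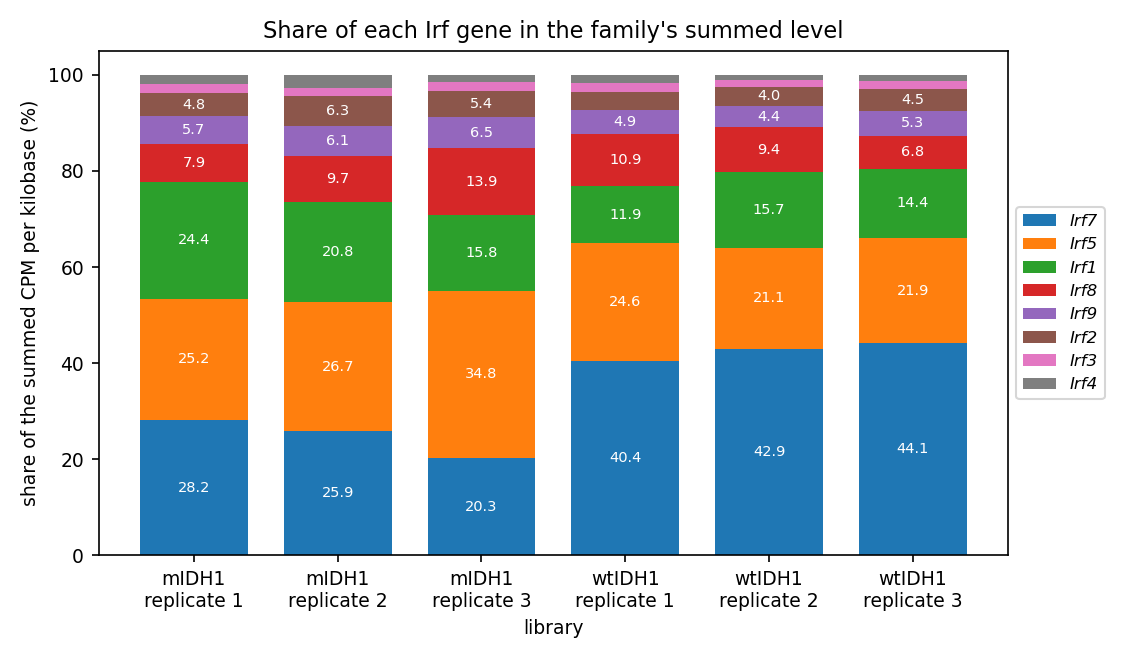
Share of each Irf gene, in percent, of the summed CPM per kilobase of the 8 genes in each library, mIDH1 on the left and wtIDH1 on the right, with shares above 4% printed. The lowest segment, Irf7, is between 20.3 and 28.2% in mIDH1 and between 40.4 and 44.1% in wtIDH1.

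The genes that activate IRF proteins moved in both directions. Of 29 tested kinases, adaptors and sensors, 10 fell and 2 rose in mIDH1, with a median log2 fold change of -0.35; of all genes, 5.39% were called lower and 2.78% higher. Ikbke, a kinase that phosphorylates Irf3 and Irf7, had 64.6, 33.2 and 45.2 CPM in mIDH1, against 111.2, 149.4 and 176.2 CPM in wtIDH1, a log2 fold change of -1.61 ± 0.25 (SE, adjusted p = 0.00281). Ikbkb, the kinase that phosphorylates Irf5 (log2 fold change -0.99, adjusted p = 0.00297), Traf3, an adaptor for these kinases (-0.95, adjusted p = 0.00822), and Dhx58, a cytosolic RNA sensor (-1.17, adjusted p = 0.0109), fell as well. Tbk1, the other kinase of Irf3, had a log2 fold change of -0.48 (adjusted p = 0.145).

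The 2 that rose were endosomal receptors for single-stranded RNA. Tlr7 had 172.5, 282.6 and 318.1 CPM in mIDH1, against 125.8, 121.7 and 139.2 CPM in wtIDH1, with means of 257.8 ± 75.9 CPM in mIDH1 and 128.9 ± 9.14 CPM in wtIDH1 (SD, n = 3 each; edgeR's adjusted p = 0.0149). Tlr8 rose by 0.73 (adjusted p = 0.0437), whereas Tlr9, the receptor for CpG DNA, fell by 0.78 (adjusted p = 0.0266). The number of the 29 called lower was 2 without wtIDH1 replicate 3 and 3 without wtIDH1 replicate 2 or mIDH1 replicate 2, and leaving out any of these, or wtIDH1 replicate 1, removed both higher calls.

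Among 26 tested partners and regulators of IRF proteins 5 fell, against 5.39% of all genes. In edgeR 0 of the 26 were called higher (2.78% of all genes), against 1 in DESeq2, and the median log2 fold change was -0.29. Those that fell were Ets2, an ETS-family factor (-1.01, adjusted p = 0.00322), Otud5, a deubiquitinase that acts on Traf3 (-1.04, adjusted p = 0.00535), Irf2bp2, a corepressor that binds Irf2 (-0.75, adjusted p = 0.0155), Usp18, which removes Isg15 from proteins (-1.56, adjusted p = 0.026), and Tnfaip3, an inhibitor of NF-kappaB signalling (-0.64, adjusted p = 0.0437). The count was 2 without wtIDH1 replicate 2 or wtIDH1 replicate 3. Ets2 had 430.5, 514.7 and 411.6 CPM in mIDH1, against 853.5, 905.7 and 965.4 CPM in wtIDH1, with both groups narrow and far apart.

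Of 10 tested interferon receptor and JAK-STAT genes, Stat2 and Tyk2 fell, against 5.39% of all genes called lower. Stat2, the partner of Irf9 in ISGF3, had 125.2, 73.8 and 56.6 CPM in mIDH1, against 288.6, 391.3 and 440.2 CPM in wtIDH1, a log2 fold change of -2.13 ± 0.27 (SE, adjusted p = 0.000759). Tyk2, a kinase of the type I interferon receptor, fell by 1.02 (adjusted p = 0.00546). Ifngr1, a chain of the interferon gamma receptor, had a log2 fold change of 0.58 (adjusted p = 0.069). Without mIDH1 replicate 1, 5 of the 10 were called lower and 1 higher.

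Interferon genes themselves gave little signal. Of 16 in the table, 13 had 0 counts in all 6 libraries, which allows up to between 0.0861 and 0.151 CPM in a library. The 3 tested were Ifng, Ifnk and Ifnb1, with edgeR's adjusted p at 0.213 or more. Ifng had 64.3, 53.5 and 24.1 CPM in mIDH1, against 36.5, 26.0 and 21.8 CPM in wtIDH1 (log2 fold change 0.75, adjusted p = 0.213), and without mIDH1 replicate 3 there was 1 higher call in the list. Ifnb1 ranged from 0 to 3.70 CPM in mIDH1 and from 0.0379 to 1.02 CPM in wtIDH1.

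The genes that ISGF3 switches on had the lowest median of the lists around the family. Of 35 tested, 27 fell, against 5.39% of all genes. All 35 had negative log2 fold changes, and the median was -1.34. Oas2, which makes the activator of RNase L, had 28.7, 24.8 and 23.3 CPM in mIDH1, against 144.7, 238.3 and 222.6 CPM in wtIDH1 (log2 fold change -2.98 ± 0.22 SE; edgeR's adjusted p = 3.92e-05). Both antiviral GTPases Mx1 and Mx2 fell, with log2 fold changes of -3.03 (adjusted p = 0.000357) and -2.86 (adjusted p = 0.00012), and Oasl1, an inhibitor of Irf7 translation in mice, fell by 2.49 (adjusted p = 0.000193). The level summed over the list was 2286 to 5835 CPM in mIDH1 and 7487 to 11053 CPM in wtIDH1.

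The 4 genes whose ISRE is printed above were chosen for their small p, so their decrease is a description: Stat2 as given, Rsad2, an antiviral enzyme (log2 fold change -2.19, adjusted p = 0.00941), Ifit3, which binds viral RNA with its relatives (-1.88, adjusted p = 0.00842), and Ddx60, a helicase (-1.22, adjusted p = 0.00778). Ifit1, which also holds ISRE matches, had a log2 fold change of -0.74 and did not pass (adjusted p = 0.345). An ISRE lay in the window of 11 of the 26 list genes that had a window, 42.3%, against 3.35% of all tested genes with a window. The list names genes that ISGF3 switches on, and ISGF3 binds the ISRE. A high share therefore follows from the choice of the list and is not a result of these data. The number of the 35 called lower was 10 without wtIDH1 replicate 2, 10 without wtIDH1 replicate 3 and 16 without mIDH1 replicate 2, while the median stayed between -1.67 and -1.09 over all 15 settings. Oas, Mx and Ifit genes have close paralogs, and no source used here gives how reads matching several genes were counted, which leaves their single values uncertain.

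**Figure D5:**
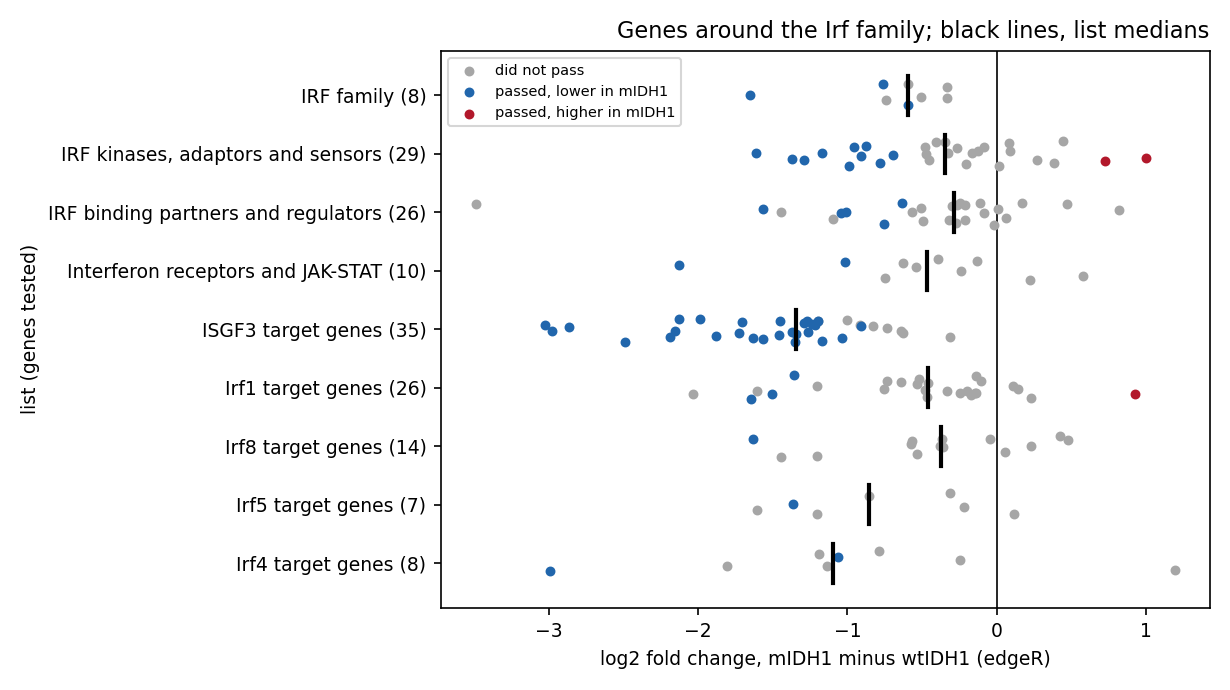
Log2 fold change (mIDH1 minus wtIDH1) of every tested gene of the Irf family and of 8 lists around it, blue where it fell, red where it rose and grey where it did not pass, with the list median as a black line and the number tested in brackets. The ISGF3 list has its median at -1.34 and no gene above 0, and the other 8 rows have medians between -1.10 and -0.29; the 3 tested interferon genes, with a median of 0.75, are not drawn.

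Lists of genes described as targets of single factors are read beside the 5.39% of all genes called lower and 2.78% called higher. For Irf1, 3 of 26 fell and 1 rose, and the median log2 fold change was -0.46. Those that fell were Ptgs2, the inducible cyclooxygenase (-1.36, adjusted p = 0.00177), Nlrc5, the activator of MHC class I genes (-1.51, adjusted p = 0.00372), and Cxcl10, a T cell chemokine whose groups overlapped (-1.65, adjusted p = 0.0242). Il18bp, which binds interleukin 18, rose by 0.93 (adjusted p = 0.0235). The genes of antigen processing in that list, among them Psmb8, Psmb9, Tap1 and B2m, had log2 fold changes of -0.20, -0.48, -0.14 and 0.14, and none of these 4 passed. Without mIDH1 replicate 1 the number called lower in this list was 9, and it was 2 without mIDH1 replicate 2, wtIDH1 replicate 2 or wtIDH1 replicate 3.

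For Irf8, 1 of 14 fell, a share near that of all genes. It was Klf4, a factor of monocyte differentiation, with 214.6, 465.1 and 187.2 CPM in mIDH1, against 785.1, 1070 and 832.7 CPM in wtIDH1 (log2 fold change -1.63 ± 0.30 SE, adjusted p = 0.0062). Cybb, the catalytic subunit of the phagocyte oxidase, had a log2 fold change of 0.48 (adjusted p = 0.0919) and Ctss, a lysosomal protease, of 0.43 (adjusted p = 0.132), both with all mIDH1 libraries above all wtIDH1 libraries. Fcgr1, the high-affinity IgG receptor, had one of -0.57 (adjusted p = 0.13). The list's median was -0.37, and 3 were called lower without mIDH1 replicate 1.

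For Irf5, 1 of 7 fell: Il1b, the inflammatory cytokine, with 1086, 1227 and 415.2 CPM in mIDH1, against 2228, 2310 and 2496 CPM in wtIDH1 (log2 fold change -1.37 ± 0.30 SE, adjusted p = 0.0173). Tnf, another cytokine of that list, had a log2 fold change of -0.22 (adjusted p = 0.547), and without wtIDH1 replicate 2 or wtIDH1 replicate 3 the list held 0 calls in edgeR. For Irf4, 2 of 8 fell, Kdm6b, a histone demethylase (log2 fold change -1.06, adjusted p = 0.0111), and Mgl2, a lectin of macrophages and dendritic cells (-2.99, adjusted p = 0.0112). Mgl2 lay between 0.666 and 3.32 CPM in mIDH1 and between 10.3 and 21.4 CPM in wtIDH1. Chi3l3 had 2488, 1230 and 757.2 CPM in mIDH1, against 292.9, 772.3 and 891.3 CPM in wtIDH1. Its log2 fold change of 1.19 (edgeR's adjusted p = 0.104) was the only positive 1 of the 8, and its groups overlapped. In the Irf4 list 3 were called lower and 1 higher without mIDH1 replicate 3, 1 lower without wtIDH1 replicate 2 and 0 without wtIDH1 replicate 3.

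For each Irf gene called, the genes with the most similar pattern were those with the smallest root mean square difference in centred log2 CPM over the 6 libraries. For Irf7 they were Nfkbie (0.0809), Trim30d (0.129) and Nlrc5 (0.156). Nfkbie, an inhibitor of NF-kappaB, had 208.3, 147.7 and 97.3 CPM in mIDH1, against 445.4, 540.9 and 552.8 CPM in wtIDH1, with the same order of libraries as Irf7 in mIDH1. For Irf8 they were Zc3h12a (0.0840), Rinl (0.0846) and Sipa1 (0.0941), and for Irf5 Zmiz2 (0.0488), Usf1 (0.0512) and Sf3b1 (0.0630). These distances describe likeness over 6 libraries and carry no test.

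The sort and other cell types were followed with marker lists, whose calls are read beside the 5.39% of all genes called lower and 2.78% called higher. Of 9 myeloid sort genes 2 fell, Ly6c2, a gene of the Gr-1 epitope (log2 fold change -1.76, adjusted p = 0.00184), and Cd14, a co-receptor for bacterial lipopolysaccharide (-0.81, adjusted p = 0.0211). Itgam (CD11b), Ptprc (CD45) and Csf1r had log2 fold changes of 0.13, -0.12 and -0.29, which did not pass. Macrophage markers summed to 7931 to 15290 CPM in mIDH1 and 4750 to 5989 CPM in wtIDH1, with 7 of 12 called higher. Monocyte markers summed to 3720 to 5159 CPM in mIDH1 and 5919 to 9157 CPM in wtIDH1, with 3 of 10 called lower (Ly6c2, Plac8 and Nr4a1). Most of that sum in every library came from Fn1, which did not pass (edgeR's adjusted p = 0.110). So the groups differed in myeloid markers alongside Irf7, Irf8, Irf5 and the ISGF3 targets, and the part of these markers in those results was not tested.

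Plasmacytoid dendritic cells are known for high Irf7 and Irf8. Their markers summed to 310.5 to 466.0 CPM in mIDH1 and 312.2 to 411.8 CPM in wtIDH1, with edgeR's adjusted p at 0.531 or more for the 5 tested, and 3 were too low to test: Ly6d and Klk1 lay at 0.185 CPM or less in every library, and Cox6a2 reached 1.80 CPM in wtIDH1 replicate 1. Most of that sum came from Lair1 and Tcf4, which other cells also express. Type 1 dendritic cell markers, where Irf8 is also high, summed to 137.3 to 274.7 CPM in mIDH1 and 115.9 to 225.9 CPM in wtIDH1, with Cadm1 of 9 called higher. Cd8a, 1 of the 9, alone had 131.3, 134.0 and 34.1 CPM in mIDH1, against 102.9, 38.4 and 19.4 CPM in wtIDH1. Of these 9, 7 had negative log2 fold changes, with a median of -0.35; Batf3, a factor that type 1 dendritic cells need, had -1.45 (adjusted p = 0.283) and Xcr1, their chemokine receptor, -1.35 (adjusted p = 0.267). B cell markers, of a lineage with high Irf4 and Irf8, summed to 5.43 to 14.04 CPM in mIDH1 and 2.72 to 8.55 CPM in wtIDH1. The summed levels of these 3 lists overlapped between the groups.

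Neutrophil markers summed to 448.9 to 510.1 CPM in mIDH1 and 337.7 to 417.7 CPM in wtIDH1, with 3 of 10 tested called higher and 1 lower, and Elane lay at 0.23 CPM or less in every library. The gene called lower, Csf3r, made up most of the wtIDH1 sum, at 247.6, 259.8 and 272.7 CPM. In mIDH1 it had 157.2, 175.6 and 110.1 CPM (log2 fold change -0.82, edgeR's adjusted p = 0.0214). Csf3r was the only 1 of the 10 with a negative log2 fold change. T and NK cell markers summed to 413.6 to 736.4 CPM in mIDH1 and 351.2 to 479.6 CPM in wtIDH1, with Cd4 of 10 called higher. Glioma markers summed to 15.7 to 23.3 CPM in mIDH1 and 11.6 to 12.02 CPM in wtIDH1, and 5 of the 12 were tested. Sox2 was called higher, at 0.546, 7.30 and 4.19 CPM in mIDH1, against 0, 0.0759 and 0.151 CPM in wtIDH1. Of the 5, 2 had negative log2 fold changes, Ptprz1 (-2.30, edgeR's adjusted p = 0.178) and Gfap (-2.09, adjusted p = 0.317). Endothelial and pericyte markers summed to 75.1 to 133.6 CPM in mIDH1 and 160.2 to 197.0 CPM in wtIDH1, with a smallest adjusted p of 0.0543 in edgeR. Neither the glioma nor the endothelial and pericyte sum overlapped between the groups. Type 2 dendritic cell markers summed to 1453 to 2003 CPM in mIDH1 and 1447 to 1677 CPM in wtIDH1, with Mgl2 called lower. Most of that sum came from Sirpa and Itgax, which did not pass. Microglia markers summed to 832.6 to 1762 CPM in mIDH1 and 1043 to 1659 CPM in wtIDH1, with a smallest adjusted p of 0.0522 in edgeR. The nuclear RNAs Malat1 and Neat1 also moved with the groups, at 3940 ± 491 and 82.3 ± 14.8 CPM in mIDH1, against 9345 ± 2110 and 746.9 ± 219 CPM in wtIDH1 (SD, n = 3 each; adjusted p = 0.00228 and 3.92e-05 in edgeR). The part of these RNAs and of the neutrophil, glioma and endothelial markers in the results for the Irf genes was not tested.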

How the data were processed

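RNA-seq of 6 libraries was deposited by the authors as 1 table of estimated counts per gene, not scaled to library size; per the labels' protocols, polyadenylated RNA was made into libraries with a TruSeq kit. TopHat2 2.0.13, Bowtie2 2.2.1, HTSeq, Cuffdiff 2.1.1, Cufflinks and FastQC are named in the submitters' processing notes, as is the build mm10; the sources used here do not give their order, settings or annotation. In each library 1.31 to 1.61% of values were not whole (tolerance 1e-09), those of the Irf genes all being whole, and values were rounded. Replicates of a group differed by more than sampling noise (chi-square of 48.5 to 139 per degree of freedom). Floors take 3 counts as the limit that a count of 0 allows and cover counting error only.

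Genes passing filterByExpr (minimum count 10, minimum total 15) were scaled by TMM and compared with edgeR 4.0.16 (glmQLFit, glmQLFTest, no term beside group, two-sided, 4 residual degrees of freedom, Benjamini-Hochberg over all genes tested, threshold 0.05) in R 4.3.3. The steps were tested on simulated data. Alternatives were other scalings and filters, DESeq2 1.42.0, limma 3.58.1 voom, robust dispersion, a replicate block and leaving out each library. Pair ratios used log2 CPM with a prior count of 2. Gene positions, exon lengths and overlaps are from GENCODE vM21, and promoter windows from RefSeq (GRCm38.p6).

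The members and lists were chosen with earlier results of these data known. Named genes are all Irf genes, the 3 most similar genes of each called member (mean of at least 5 CPM), and up to 4 tested members of each list with the smallest p; Tbk1, Tlr7, Tlr8, Tlr9, Tnfaip3, Tnf, the 3 further ISGF3 targets with a printed ISRE (Ddx60, Ifit3 and Rsad2), Ifit1, genes sharing exon bases with a member, and the antigen processing, marker and nuclear RNA genes were added after their values were seen.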

Additional observations from a re-analysis of the deposited data

How the results depend on the processing

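All 120 log2 fold changes of the 8 Irf genes under the 15 other settings were negative, and 36 of them passed the threshold: 15 of 15 for Irf7, 11 for Irf8, 7 for Irf5, 2 for Irf9, 1 for Irf3, and 0 for Irf1, Irf2 and Irf4. The main count of 3 Irf genes called lower became 2 with upper-quartile factors or library totals alone, 4 with DESeq2, and between 1 and 5 when 1 library was left out. Over all genes, 1058 were called, 698 of them lower (66.0%); with library totals alone 593 were lower and 486 higher (55.0% lower), and with upper-quartile factors 603 and 456. DESeq2 called 1705 genes, and leaving out 1 library gave 334 (without wtIDH1 replicate 2) to 1033 calls, 256 to 707 of them lower. Replicate numbers do not pair the samples, since same-numbered libraries had deviations that correlated at -0.03, 0.03 and -0.05; with the replicate block, 585 genes were called, 429 of them lower, and 1 Irf gene (Irf7), with adjusted p of 0.0836 for Irf8 and 0.107 for Irf5. The cause of these changes was not tested. Without a library, fewer samples were in the fit. With a prior count of 0.5 the number of Irf pairs whose groups did not overlap was again 7. Per longest transcript in place of all exons, mean levels over the 6 libraries ran from 9.17 CPM per kilobase (Irf4) to 230.4 (Irf7).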
